A study of Mus musculus with 15 samples.

Results

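Female mouse hepatocytes kept in serum of germ-free female mice and then given growth hormone were compared with female hepatocytes kept in serum of conventionally raised female mice. The comparison holds 5 of the 15 samples of the series, chosen by their labels: 3 with germ-free serum plus hormone (replicates 1, 2 and 3, here the hormone libraries) and 2 with conventional female serum (replicates 2 and 3, here the conventional libraries). Germ-free mice carry no microbiota. A pair of columns with the same name could not be assigned to a sample and was used in no step. The question is what differs from conventional serum after hormone has been added, and libraries with germ-free serum and vehicle entered none of the comparisons, and served only in 1 alternative fit, for the spread.

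The cells compared came from cryopreserved stocks of female CD-1 donors and were seeded at 200000 cells per well on collagen I. They attached for 6 h in medium with fetal bovine serum and dexamethasone, and were covered with a Geltrex matrix in a defined medium with dexamethasone, insulin, transferrin and linoleic acid. The next day the medium received 25% mouse serum. After 24 h the hormone libraries were exposed to mouse growth hormone at 8 ng/ml for 2 h and the conventional libraries to none, the stated vehicle being PBS. Serum and hormone therefore differ together between the groups, and their parts in a difference cannot be told apart here. A second set, 3 libraries of the same female cells in conventional male serum without hormone, is given beside the results where it helps. Another 3 libraries, of hepatocytes from male donors in conventional male serum without hormone, entered the fit only for its estimate of the spread. Nothing in the labels states if the replicates came from different cultures, donors or serum pools, so p-values measure a spread between samples that may be technical.

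As background, growth hormone binds its receptor on hepatocytes, which activates the kinase JAK2 and the transcription factors STAT5A and STAT5B. These bind DNA elements called GAS and switch on Igf1 together with the feedback inhibitors Cish, Socs2 and Socs3. NF-kB is the transcription factor family that answers microbial products, interleukin 1 and tumour necrosis factor, and it drives cytokine, chemokine and adhesion genes as well as its own inhibitors. In liver, cytokines of this kind induce acute phase proteins in hepatocytes and can lower genes of drug and nutrient metabolism.

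Total counts were 47725150, 41584999 and 48742274 in the hormone libraries and 47798248 and 42903075 in the conventional ones. Hormone library 1 and conventional library 2 were richest in Xist, with 32396 and 23315 counts, against 13936 to 18293 counts in the other 3 libraries. Among their own replicates these 2 also had the most Malat1, a nuclear noncoding RNA, at 14580 and 11120 CPM. These Malat1 values and the satellite sums are CPM by total count, while all other CPM are scaled to library size after TMM normalization. Of 9 satellite-like gene models, the sum was 361 to 690 CPM in the hormone libraries, 5.29 and 151 CPM in the conventional ones and 528 to 813 CPM in male serum. Cells carried hepatocyte transcripts: Alb, albumin, stood at 6568, 6132 and 7365 CPM in the hormone libraries, against 5896 and 5800 CPM in the conventional ones. Of 24 tested genes of hepatocyte identity, 4 fell, among them Tat, Ahsg and Cps1, beside 1.04% falls over all genes. Without hormone library 3 or conventional library 3, 2 fell.

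Of 17251 genes tested with the quasi-likelihood test of edgeR, 405 (2.35%) passed an adjusted p of 0.05, and 2499 had an unadjusted p under 0.05. There were 226 rises (1.31%) and 179 falls (1.04%). Scaling by library size alone gave 212 rises and 250 falls. A fit of only the compared groups, without the other 6 libraries, called 222 genes. Rises reached much further than falls: 79 genes rose by at least 1 on the log2 scale (0.458%) and 14 fell by as much (0.0812%). These rises include satellite-like gene models of chromosome 9, such as Gm10720 at 3.40 and Gm10716 at 2.83, neither called against conventional male serum. Such predicted models are not among the genes named below. Without both libraries richest in Xist, 214 genes were called, of which 164 were among the 405. Leaving out single libraries gave 175 calls without hormone library 3, 226 without hormone library 2, 211 without conventional library 2 and 227 without conventional library 3. Adjusted p-values below are from this test with Benjamini-Hochberg adjustment over all genes tested, and log2 changes carry a standard error (SE). A call against female serum that named genes lost when 1 library was left out is stated beside the gene or group.

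**Figure D1:**
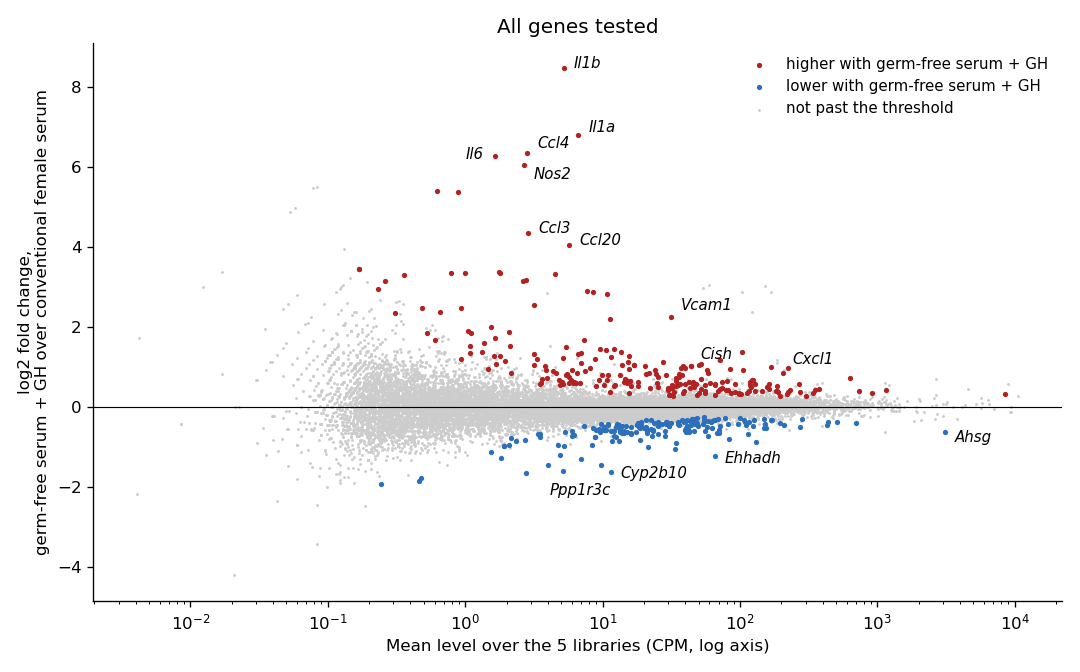
Log2 fold change of germ-free serum plus growth hormone (GH) over conventional female serum (vertical axis) against the mean level over the 5 libraries in CPM (horizontal log axis), 1 point per gene tested. Red points are the 226 rises and blue points the 179 falls; the genes Il1b, Il1a, Ccl4, Il6 and Nos2 lie above a log2 change of 6, while Cyp2b10 and Ppp1r3c among the falls lie near -1.6.

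Cytokine genes made the largest difference, being close to silent in conventional serum and clearly transcribed with germ-free serum plus hormone. Il1b encodes interleukin 1 beta, a fever-inducing cytokine that activates NF-kB (mm10 chromosome 2, 129364570 to 129371139, minus strand). It had 7.69, 9.56 and 8.85 CPM in hormone libraries 1, 2 and 3, against 0 and 0.0445 CPM in conventional libraries 2 and 3. Every hormone library lay above both conventional ones, which the rule for the largest rises required. The log2 change was 8.47 ± 0.43 (SE, adjusted p 6.04e-08). The hormone libraries held 1205 pooled counts, against 2 in the conventional libraries, and the ratio scaled by library size was 406 with a 95% interval of 112 to 3353 (exact, counting error only).

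Il1a, interleukin 1 alpha, the membrane-bound and alarm-type partner of Il1b (chromosome 2, 129299610 to 129309972), had 9.84, 12.4 and 10.9 CPM in the hormone libraries, against 0.0617 and 0.133 CPM in the conventional ones. Its CPM was above that of Il1b and Il6 in each hormone library, and it rose by 6.80 ± 0.289 on the log2 scale (adjusted p 1.00e-08). Il6, the cytokine that instructs hepatocytes to make acute phase proteins (chromosome 5, 30013114 to 30019981), had 2.13, 3.64 and 2.45 CPM in the hormone libraries, against 0.0206 and 0.0445 CPM in the conventional ones. The hormone libraries again stood apart, with replicate 2 highest. Its log2 change was 6.28 ± 0.64, and the ratio of pooled counts, 376 against 3, was 84.4 (95% interval 28.7 to 411).

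Tnf, tumour necrosis factor, had 1.60, 1.75 and 1.36 CPM in the hormone libraries, against 0.103 and 0.200 CPM in the conventional ones. Tnf rose by 3.36 ± 0.491 (adjusted p 0.00208), a call lost without both libraries richest in Xist (adjusted p 0.0718). Csf2, which encodes the macrophage growth factor GM-CSF, had 3.39, 5.42 and 4.06 CPM in the hormone libraries, against 0.494 and 0.445 CPM in the conventional ones. It too was separate in all libraries and rose by 3.18 ± 0.301. Csf1, the main macrophage growth factor, was already present in conventional serum: 74.2, 65.0 and 60.2 CPM in the hormone libraries, against 33.2 and 29.8 CPM in the conventional ones. It rose by 1.08 ± 0.0875 (adjusted p 8.60e-06). Lif, an Il6-type cytokine, rose by 0.48 ± 0.083, a call lost without conventional library 3 (adjusted p 0.0896).

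Il1rn, the natural antagonist of the interleukin 1 receptor, had 10.3, 9.44 and 10.6 CPM in the hormone libraries, against 2.86 and 3.40 CPM in the conventional ones. All hormone libraries were higher, and the log2 change was 1.69 ± 0.182 (adjusted p 0.000129). Il10, an anti-inflammatory cytokine picked after its values were seen, had 1.18, 1.30 and 1.91 CPM in the hormone libraries, against 0 and 0.0667 CPM in the conventional ones. With 205 pooled counts against 3, its ratio was 46.0 (95% interval 15.5 to 225), and the call held without each library in turn.

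**Figure D2:**
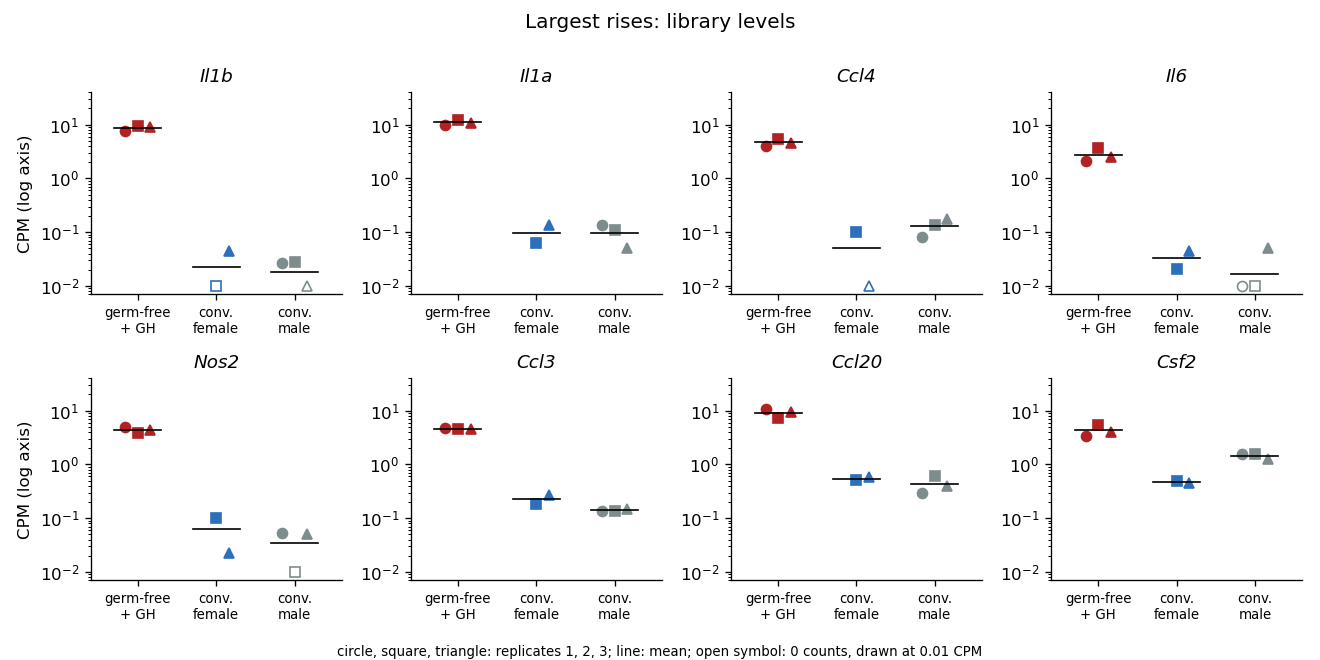
Level in CPM (vertical log axis) of 8 cytokine, chemokine and effector genes in the libraries with germ-free serum plus growth hormone (red), conventional female serum (blue) and conventional male serum (grey). Symbols are replicates and lines are means; open symbols are libraries with 0 counts, drawn at 0.01 CPM. In each of the 8 genes all hormone libraries sit above every library of both conventional sera. The rule by which these genes were chosen required this for female serum.

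Nos2 encodes the inducible nitric oxide synthase of activated macrophages and cytokine-treated hepatocytes (chromosome 11, 78920787 to 78960254). It had 4.93, 3.90 and 4.44 CPM in the hormone libraries, against 0.103 and 0.0222 CPM in the conventional ones. The groups were widely separate and the log2 change was 6.05 ± 0.432 (adjusted p 2.67e-06). Irg1, the enzyme that makes itaconate in activated macrophages, had 1.96, 2.34 and 2.31 CPM in the hormone libraries, against 0.699 and 0.378 CPM in the conventional ones. It rose by 2.01 ± 0.34 and lost its call without conventional library 3 (adjusted p 0.0566). Plek, pleckstrin, a protein kinase C substrate of blood cells, had 4.15, 5.25 and 4.77 CPM in the hormone libraries, against 0.843 and 0.756 CPM in the conventional ones, and rose by 2.56 ± 0.232.

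Chemokines, which recruit leukocytes, were the next group. Ccl4 and Ccl3, which attract macrophages and T cells, were among the largest rises. Ccl4 had 4.07, 5.37 and 4.54 CPM in the hormone libraries, against 0.103 and 0 CPM in the conventional ones, and rose by 6.37 ± 0.645. Ccl3 had 4.68, 4.61 and 4.63 CPM in the hormone libraries, against 0.185 and 0.267 CPM in the conventional ones. The 3 hormone libraries hardly differed from each other in Ccl3, and its log2 change was 4.35 ± 0.303 (adjusted p 2.39e-06). Ccl20, the ligand of CCR6 (chromosome 1, 83116766 to 83119167), had 10.9, 7.38 and 9.33 CPM in the hormone libraries, against 0.514 and 0.578 CPM in the conventional ones. It rose by 4.07 ± 0.253 (adjusted p 6.59e-07).

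Cxcl10, a T cell attractant, had 12.3, 19.7 and 17.3 CPM in the hormone libraries, against 3.46 and 3.60 CPM in the conventional ones, with a rise of 2.22 ± 0.272. Its relative Cxcl11 rose by 1.02 ± 0.173 and the neutrophil attractant Cxcl5 by 1.89 ± 0.292. Against conventional male serum Cxcl11 changed by -0.24 (adjusted p 0.434) and Cxcl5 by 2.56 (adjusted p 7.3e-05). The chemokines that cultured hepatocytes already made in conventional serum rose less. Ccl2, the monocyte attractant, had 783, 685 and 780 CPM in the hormone libraries, against 474 and 426 CPM in the conventional ones, a log2 change of 0.74 ± 0.0785. Cxcl1, a neutrophil attractant, had 273, 236 and 239 CPM in the hormone libraries, against 140 and 134 CPM in the conventional ones, a log2 change of 0.86 ± 0.0887 (adjusted p 8.21e-05). Both remained called without each library in turn. Ccl7 rose by 0.59, a call lost without conventional library 3 (adjusted p 0.0573). Cxcl2 rose by 0.52, a call lost without hormone library 2 or 3 or either conventional library (adjusted p 0.0707 to 0.189). Cxcl3 at 0.68 (adjusted p 0.0580), Ccl9 at 0.59 (adjusted p 0.0731), Cxcl9, Cxcl12, Cxcl16 and Ccl5 did not pass the test.

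Vcam1, the adhesion molecule that holds monocytes and lymphocytes on endothelium (chromosome 3, 116109949 to 116129688), had 48.3, 42.1 and 47.0 CPM in the hormone libraries, against 10.8 and 8.36 CPM in the conventional ones. Both groups were tight and apart, with a log2 change of 2.26 ± 0.17 (adjusted p 3.83e-06). Icam1, the ligand of leukocyte integrins, had 218, 167 and 178 CPM in the hormone libraries, against 129 and 122 CPM in the conventional ones. Its log2 change of 0.58 ± 0.0981 lost its call without conventional library 3 (adjusted p 0.0536). Sele, E-selectin, was at 0.443, 0.402 and 0.243 CPM in the hormone libraries, against 0.0823 and 0.0222 CPM in the conventional ones, and did not pass the test (adjusted p 0.128).

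Among components of the NF-kB pathway itself, the inhibitors Nfkbia and Tnfaip3 rose more than the subunits. Nfkbia encodes the inhibitor that holds NF-kB in the cytoplasm and is itself an NF-kB target. It had 138, 138 and 139 CPM in the hormone libraries, against 91.7 and 86.5 CPM in the conventional ones, a log2 change of 0.63 ± 0.0729 (adjusted p 0.000265). Tnfaip3, the ubiquitin-editing inhibitor A20, had 321, 250.5 and 273 CPM in the hormone libraries, against 153 and 129.7 CPM in the conventional ones, a log2 change of 0.99 ± 0.101. Nfkbiz, a nuclear cofactor, rose by 1.19 ± 0.108, and Birc3, an inhibitor of apoptosis, by 0.59 ± 0.0677. Tnfaip2 rose by 0.99 ± 0.126. These calls held without each library in turn.

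Of the subunits, Nfkb1 rose by 0.35 and Relb by 0.38, but Nfkb1 lost its call without hormone library 3 or either conventional library (adjusted p 0.0527 to 0.111) and Relb without any 1 of the 5 (0.0745 to 0.174). Nfkb2 changed by 0.28 (adjusted p 0.0743) and Rela, the main activating subunit, by 0.01 ± 0.103. Among sensors, Tlr2, which binds bacterial lipoproteins, rose by 0.87 ± 0.157, a call lost without conventional library 3 (adjusted p 0.0536). Tlr4, the lipopolysaccharide receptor, at -0.39 (adjusted p 0.294), and its co-receptor Cd14, at -0.02, did not pass. Irak3, an inhibitor of Toll-like receptor signalling, was the only fall, by 0.34, and lost its call without any hormone library or conventional library 2 (adjusted p 0.0649 to 0.337).

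Over the whole list of 33 NF-kB targets and chemokines, all of which were tested, 21 rose, 1 fell and 11 did not pass, beside 1.31% rises over all genes. The list includes Il1b, Il6 and Tnf, and its median log2 change was 0.63, against -0.0017 over all genes. With 1 library left out, 16 to 21 members rose, fewest without conventional library 3, and 17 rose without both libraries richest in Xist. Its summed level was 3176, 2898 and 3064 CPM in the hormone libraries, against 2099 and 2007 CPM in the conventional ones.

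Promoters of these genes were searched for a kappaB-type motif on either strand (GGG, any 2 bases, TT, any base, CC), in windows of RefSeq starts on GRCm38.p6, from 250 bases before to 50 after the start. The motif was picked after the values were seen, and it matches itself in part on the other strand, so that 1 site can give overlapping hits. It occurred in 14 of 25 windows of the 21 list genes with a window (56%), in 8 of 14 windows of the members that rose (57.1%), and in 4.79% of all 32851 windows. The list was made of known NF-kB targets. The stretches from 200 bases before to 30 after the start are shown 5′ to 3′ for 4 members that rose, with the motif in capitals; they are Il6 (chr5:30012914-30013143, plus strand), Ccl20 (chr1:83116566-83116795, plus strand), Cxcl10 (chr5:92348860-92349089, minus strand) and Nfkbia (chr12:55492618-55492847, minus strand).
Il6: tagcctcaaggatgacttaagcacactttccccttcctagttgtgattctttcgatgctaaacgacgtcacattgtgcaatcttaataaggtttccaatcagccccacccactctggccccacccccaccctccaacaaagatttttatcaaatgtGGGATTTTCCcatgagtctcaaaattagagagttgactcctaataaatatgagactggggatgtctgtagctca
Ccl20: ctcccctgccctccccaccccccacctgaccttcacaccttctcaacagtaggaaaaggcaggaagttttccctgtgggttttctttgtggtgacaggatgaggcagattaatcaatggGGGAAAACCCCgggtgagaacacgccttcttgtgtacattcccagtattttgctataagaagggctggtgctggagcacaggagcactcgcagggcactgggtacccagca
Cxcl10: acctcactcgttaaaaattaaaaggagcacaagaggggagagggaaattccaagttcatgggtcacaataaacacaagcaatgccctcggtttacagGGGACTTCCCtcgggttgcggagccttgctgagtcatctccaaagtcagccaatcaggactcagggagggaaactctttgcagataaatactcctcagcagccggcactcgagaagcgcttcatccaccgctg
Nfkbia: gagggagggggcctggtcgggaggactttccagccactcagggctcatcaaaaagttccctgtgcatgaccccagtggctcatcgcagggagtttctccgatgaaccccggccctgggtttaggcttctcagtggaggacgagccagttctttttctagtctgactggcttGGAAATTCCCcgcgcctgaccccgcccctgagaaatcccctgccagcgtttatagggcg
The first base of the motif lay 44 bases before the start in Il6, 81 in Ccl20 (overlapping hits), 103 in Cxcl10 and 29 in Nfkbia. The windows of Il1b, Il1a, Ccl3, Csf2 and Tnf held no match to these letters.

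Further genes, picked after their values were seen, rose beside these lists. Clec4e, a receptor of macrophages for fungal and mycobacterial glycolipids, had 0.527, 1.23 and 1.34 CPM in the hormone libraries, against 0.0206 and 0.0222 CPM in the conventional ones. With 143 pooled counts against 2 its ratio was 48.1 (95% interval 13.1 to 401). Cybb, the catalytic subunit of the phagocyte oxidase, rose by 2.50 ± 0.356, and Rgs16, a regulator of G protein signalling, by 1.43 ± 0.208. Ripk2, the kinase of NOD receptor signalling, had 83.3, 61.6 and 69.5 CPM in the hormone libraries, against 43.7 and 30.5 CPM in the conventional ones, and rose by 0.95 ± 0.14. Pfkfb3, a driver of glycolysis, had 24.7, 16.2 and 18.4 CPM in the hormone libraries, against 9.42 and 8.45 CPM in the conventional ones, and rose by 1.14 ± 0.162. These 5 calls held without each library in turn. Nlrp3, the sensor of the inflammasome, rose by 3.36 ± 0.624 and lost its call without conventional library 2 (adjusted p 0.0780) or 3 (0.0785).

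In bulk RNA fewer cells of a type cannot be told apart from less RNA per cell. Of 18 Kupffer cell and macrophage markers 13 were tested, with 0 rises and 1 fall by edgeR. DESeq2 gave 1 rise and 1 fall, and 2 members had an unadjusted p under 0.05 by edgeR. Over all genes 1.31% rose and 1.04% fell by edgeR. Of all 17251 genes, DESeq2 called 383 rises and 308 falls, and 2499 had an unadjusted p under 0.05 by edgeR. Clec4f, a lectin of Kupffer cells, had 1.56, 2.18 and 1.60 CPM in the hormone libraries, against 3.21 and 3.18 CPM in the conventional ones. Clec4f fell by 0.85 ± 0.179, a call lost without hormone library 1 or 3 or either conventional library (adjusted p 0.0654 to 0.107). The markers Emr1, Csf1r and Vsig4 stayed under 1 CPM in all 5 libraries. Others were somewhat higher. C1qa had 0.927, 1.73 and 1.32 CPM in the hormone libraries, against 1.91 and 1.80 CPM in the conventional ones. C1qc had 0.969, 1.35 and 0.933 CPM, against 1.38 and 1.76 CPM, and Lyz2 1.01, 1.21 and 0.974 CPM, against 1.19 and 1.07 CPM. Marco had 0, 10 and 0 counts in the hormone libraries, against 3 and 2 counts in the conventional ones, and Timd4 0, 3 and 0, against 0 and 3. The summed level of the list, most of it Cd68, was 94.5 to 115 CPM in the hormone libraries, against 112 and 121 CPM in the conventional ones. Ptprc, the pan-leukocyte antigen CD45, had 0.695, 0.970 and 0.974 CPM in the hormone libraries, against 0.370 and 0.311 CPM in the conventional ones (log2 change 1.36 ± 0.35, adjusted p 0.0580). Of 16 lymphocyte markers 4 were tested and 1 rose, Trbc2, a T cell receptor constant segment (1.68 ± 0.38), which was not called when any single library was dropped (adjusted p 0.0538 to 0.155). Their summed level was 2.33 to 3.55 CPM in the hormone libraries, against 1.89 and 1.73 CPM in the conventional ones. Cholangiocyte markers summed to 1075, 1137 and 1134 CPM in the hormone libraries, against 944 and 833 CPM in the conventional ones. In conventional male serum they summed to 1645, 1601 and 1638 CPM, above all hormone libraries. Against female serum, of 10 tested 1 rose and 9 had a positive log2 change, with a median of 0.36. Most of that sum was Cldn4, a tight junction protein, with 953, 1027 and 1012 CPM in the hormone libraries, against 832 and 733 CPM in the conventional ones. Cldn4 rose by 0.35 ± 0.0641 against female serum, a call lost without conventional library 3 (adjusted p 0.104). Its change against male serum was -0.595 ± 0.057 (adjusted p 2.27e-05). The part of other cells in the inflammatory rises was not tested.

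In the growth hormone pathway the feedback inhibitors Cish and Socs3 rose. Cish, which blocks STAT5 docking at the receptor (chromosome 9, 107296026 to 107302784), had 56.9, 54.5 and 54.1 CPM in the hormone libraries, against 29.0 and 24.9 CPM in the conventional ones. The groups were tight and separate, with a log2 change of 1.03 ± 0.149 (adjusted p 0.00186). The annotated neighbours that overlap Cish, Gm17040 and Gm17041, held 61 and 69 pooled counts in the hormone libraries, against 7671 for Cish. Socs3, which inhibits JAK kinases at cytokine receptors (chromosome 11, 117966079 to 117970047), had 13.8, 12.7 and 12.8 CPM in the hormone libraries, against 6.87 and 8.21 CPM in the conventional ones. It rose by 0.80 ± 0.11 (adjusted p 0.00127). It is a feedback target of Il6-type cytokines as well as of growth hormone.

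Socs2, the inhibitor that limits growth hormone signalling in the whole animal (chromosome 10, 95385362 to 95417180), had 31.2, 26.8 and 27.1 CPM in the hormone libraries, against 24.4 and 17.8 CPM in the conventional ones. The conventional libraries differed from each other nearly as much as from the hormone libraries, and the log2 change of 0.42 ± 0.118 did not pass (adjusted p 0.0809). Without conventional library 2 it passed (adjusted p 0.0132). Socs1 at -0.36 ± 0.368 did not pass. Over the list of 18 genes of growth hormone and STAT5 signalling, 17 were tested, 2 rose, 0 fell and 15 did not pass, beside 1.31% rises over all genes, with a median of 0.04. Cux2, a female-specific repressor downstream of STAT5, had too few counts to be tested.

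Receptor, kinase and transcription factors did not pass the test. Ghr, the receptor, had 226, 198 and 200.1 CPM in the hormone libraries, against 191 and 153 CPM in the conventional ones (0.27 ± 0.106, adjusted p 0.231). Jak2 changed by 0.04 ± 0.0983, Stat5a by -0.13 ± 0.0815 and Stat5b by 0.03 ± 0.0672. Bcl6, a repressor that STAT5 lowers in male liver, had 26.1, 33.6 and 28.4 CPM in the hormone libraries, against 32.8 and 32.6 CPM in the conventional ones (-0.16 ± 0.115, adjusted p 0.596). Igf1, the growth factor through which the hormone acts on the body, had 428, 392 and 399.7 CPM in the hormone libraries, against 438 and 361 CPM in the conventional ones. These ranges overlapped and the log2 change was 0.02 ± 0.0804. Igfals, the serum partner of Igf1, changed by 0.03 ± 0.11 and Igfbp1 by -0.18 ± 0.0805. Of 10 tested genes of the IGF axis 1 rose, beside 1.31% rises over all genes. It was the binding protein Igfbp3 (0.54 ± 0.123), a call lost without any hormone library or conventional library 2 (adjusted p 0.0645 to 0.278).

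**Figure D3:**
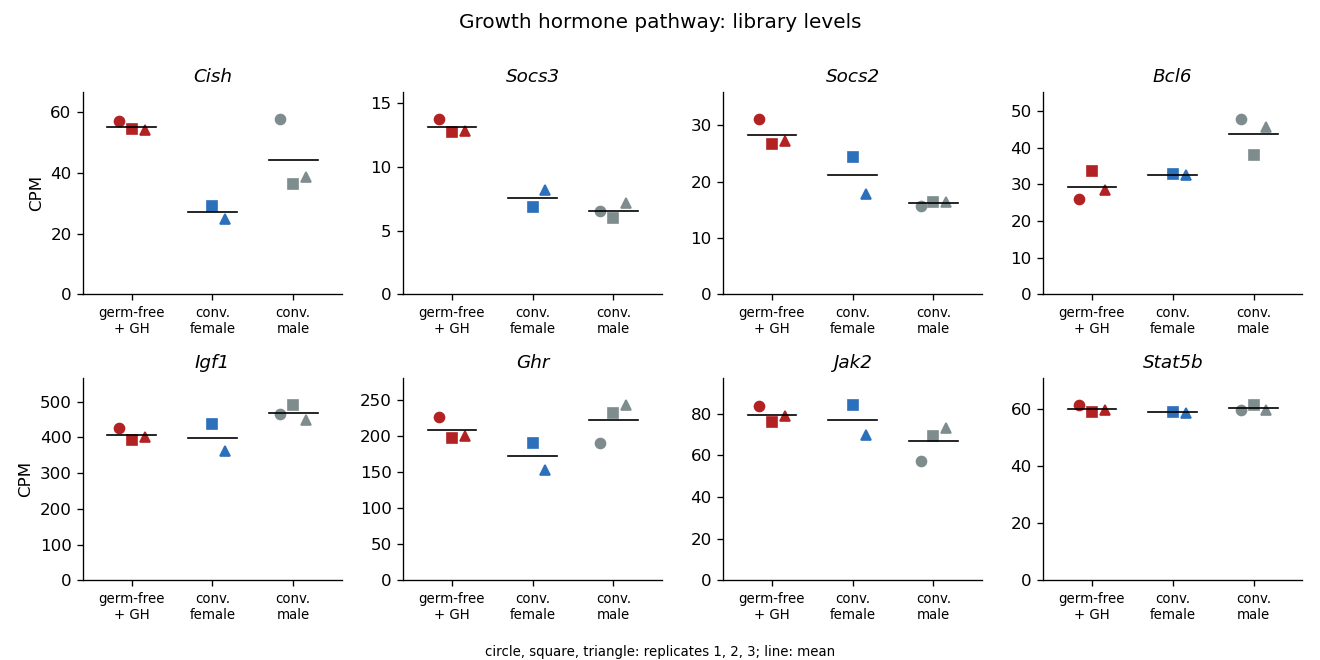
Level in CPM (vertical axes from 0) of 8 genes of the growth hormone pathway in the libraries with germ-free serum plus growth hormone (red), conventional female serum (blue) and conventional male serum (grey). Symbols are replicates and lines are means. Cish and Socs3 are higher in all hormone libraries than in both conventional female ones. Socs2 and Ghr are too but did not pass the test, while Igf1, Jak2 and Bcl6 overlap.

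GAS elements were searched as TTCNNNGAA on both strands in the same promoter windows. Cish and Socs3, the pathway members that passed the test, each had a window with a match. Of all 32851 windows 8.30% held one. The stretches from 200 bases before to 30 after the start, 5′ to 3′ on GRCm38.p6 from RefSeq, carry the element in capitals; they are Cish (chr9:107296459-107296688, plus strand) and Socs3 (chr11:117969337-117969566, minus strand).
Cish: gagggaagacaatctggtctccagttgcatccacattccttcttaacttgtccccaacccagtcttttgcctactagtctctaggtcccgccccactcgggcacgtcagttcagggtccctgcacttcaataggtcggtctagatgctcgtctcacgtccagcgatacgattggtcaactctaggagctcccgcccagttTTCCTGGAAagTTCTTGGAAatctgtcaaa
Socs3: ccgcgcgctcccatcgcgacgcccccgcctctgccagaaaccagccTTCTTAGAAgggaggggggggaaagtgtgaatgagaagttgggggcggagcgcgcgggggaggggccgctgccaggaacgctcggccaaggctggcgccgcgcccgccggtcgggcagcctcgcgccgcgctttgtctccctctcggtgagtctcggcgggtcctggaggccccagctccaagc
The second element of Cish began 11 bases after the first, and that of Socs3 lay 154 bases before the start. Of the 12 largest falls 11 had a window, and of the 12 largest rises 8. None of the 13 windows of these falls, and none of the 8 windows of these rises, held the letters of this element. It occurred in 12 of 87 windows of all named genes (13.8%) and in 3 of 25 windows of the NF-kB list (12%).

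Immediate early genes, which respond to growth factors and stress within the first hours, moved in both directions. Of 29 tested, 3 rose, 2 fell and 24 did not pass, beside 1.31% rises and 1.04% falls over all genes. The median of the list was 0.07. Ier3, a survival factor and NF-kB target, had 142, 137 and 132 CPM in the hormone libraries, against 47.9 and 57.5 CPM in the conventional ones. It rose by 1.38 ± 0.112 (adjusted p 8.60e-06), held without each library. Junb rose by 0.44 ± 0.0782, a call lost without conventional library 2 (adjusted p 0.0742). Dusp1, the phosphatase that switches off MAP kinases, fell by 0.43 ± 0.0743, a call lost without conventional library 2 (0.0655). Btg2, an antiproliferative gene, fell by 0.49 ± 0.092, a call lost without hormone library 3 (0.0520) or conventional library 3 (0.0964). Maff, a small Maf factor, rose by 0.39, a call lost without hormone library 2 or 3 or conventional library 2 (0.139 to 0.324). Fos, Jun, Egr1, Myc and Atf3 did not pass the test.

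Of 34 acute phase genes 33 were tested, and 2 rose, 2 fell and 29 did not pass, beside 1.31% rises and 1.04% falls over all genes, with a median of -0.19. The rises were Il1rn and Cebpd, a transcription factor of the acute phase, which had 25.0, 16.1 and 20.1 CPM in the hormone libraries, against 9.11 and 7.63 CPM in the conventional ones (1.28 ± 0.207). Fga, the fibrinogen alpha chain, had 1267, 608 and 953 CPM in the hormone libraries, against 1484 and 1398 CPM in the conventional ones. Hormone library 2 was lowest, and the log2 change of -0.61 ± 0.206 did not pass (adjusted p 0.158). Hp, haptoglobin, had 2460, 1197 and 1973 CPM in the hormone libraries, against 2649 and 2034 CPM in the conventional ones, with library 2 lowest again (adjusted p 0.516). Hamp, the iron hormone hepcidin, had 83.0, 32.4 and 68.1 CPM in the hormone libraries, against 98.6 and 65.7 CPM in the conventional ones (adjusted p 0.583).

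Saa4, a constitutive serum amyloid, had 36.5, 30.3 and 34.1 CPM in the hormone libraries, against 50.9 and 48.5 CPM in the conventional ones. It fell by 0.56 ± 0.0952 (adjusted p 0.00615). Il6ra, the Il6 receptor, fell by 0.65 ± 0.156, a call lost without hormone library 2 or 3 or conventional library 2 (adjusted p 0.0819 to 0.339). Without hormone library 1, 4 members of the list fell in place of 2, and without conventional library 3, 3 fell.

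The falls included genes of drug, glycogen and amino acid metabolism. Cyp2b10, a cytochrome P450 and the classic target of the xenobiotic receptor CAR (chromosome 7, 25897620 to 25926624), had 5.69, 7.15 and 6.07 CPM in the hormone libraries, against 19.8 and 18.5 CPM in the conventional ones. The groups were far apart and the log2 change was -1.61 ± 0.119 (adjusted p 3.65e-06). Its relative Cyp2b9 at -0.34 ± 0.147 (adjusted p 0.296) and Cyp3a11 at -0.13 did not pass. Of 32 tested targets of CAR and PXR 1 rose and 2 fell, beside 1.04% falls over all genes, with a median of -0.08. The receptor genes Nr1i3, at -0.60 (adjusted p 0.212), and Nr1i2, at -0.54 (adjusted p 0.0976), did not pass.

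Ppp1r3c, which targets protein phosphatase to glycogen (chromosome 19, 36731731 to 36736653), had 2.87, 2.39 and 3.27 CPM in the hormone libraries, against 8.54 and 8.72 CPM in the conventional ones. It fell by 1.60 ± 0.152 (adjusted p 4.18e-05). Tat, tyrosine aminotransferase, a glucocorticoid-induced enzyme of amino acid breakdown (chromosome 8, 109990437 to 109999803), had 4.66, 4.54 and 4.08 CPM in the hormone libraries, against 9.94 and 11.8 CPM in the conventional ones. Its log2 change was -1.29 ± 0.192 (adjusted p 0.00220). Neither showed overlap between the groups, which the rule for the largest falls required. The list of gluconeogenesis and glycogen had 0 rises and 3 falls of 22 tested, beside 1.04% falls over all genes. Its median was -0.37, and it had 2 to 4 falls with 1 library left out. Gys2, liver glycogen synthase, the third fall at -0.82, lost its call without hormone library 2 or 3 or either conventional library. Pck1 at -0.39 (adjusted p 0.176) and G6pc at -0.40 (adjusted p 0.455), the enzymes that control gluconeogenesis, did not pass.

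Fatty acid oxidation genes under PPAR-alpha, the receptor for fatty acids, showed 0 rises and 4 falls among 38 tested. Over all genes 1.04% fell, and the median of the list was -0.20. Acot1, a cytosolic acyl-CoA thioesterase, had 21.3, 19.9 and 20.2 CPM in the hormone libraries, against 34.0 and 31.3 CPM in the conventional ones. It fell by 0.67 ± 0.0992 (adjusted p 0.00219). Its mitochondrial relative Acot2 had 108, 96.4 and 94.3 CPM in the hormone libraries, against 209 and 152 CPM in the conventional ones, and fell by 0.86 ± 0.15, a call lost without conventional library 2 (adjusted p 0.0869). Ehhadh, a peroxisomal beta-oxidation enzyme (chromosome 16, 21761287 to 21787807), had 42.3, 43.5 and 42.0 CPM in the hormone libraries, against 139.9 and 59.4 CPM in the conventional ones. Conventional library 2 was far above library 3. The log2 change of -1.23 ± 0.247 shrank to -0.48 without conventional library 2 and was then not called (adjusted p 0.248); the call was also lost without hormone library 2 (0.0519) or 3 (0.0713). The list had 1 fall without conventional library 2, 2 without hormone library 2 or 3, and 7 without conventional library 3. Cpt1a, at -0.32 (adjusted p 0.0900), did not pass.

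Other members of the 12 largest falls had mixed roles. Slc25a47, a mitochondrial carrier of liver, had 6.39, 5.30 and 5.66 CPM in the hormone libraries, against 18.7 and 12.9 CPM in the conventional ones, and fell by 1.45 ± 0.181. Arrdc3, an arrestin-domain protein induced by fasting-type signals, had 20.5, 25.0 and 25.0 CPM in the hormone libraries, against 49.9 and 47.6 CPM in the conventional ones, and fell by 1.05 ± 0.0977 (adjusted p 3.37e-05). Fezf1 and Zfp750, zinc finger transcription factors, fell by 1.45 ± 0.197 and 1.19 ± 0.16. These 4 calls held without each library. Synm, the intermediate filament protein synemin, fell by 1.64 ± 0.289, a call lost without conventional library 2 (adjusted p 0.0828); it overlaps Ttc23, which held 2873 pooled counts in the hormone libraries against 206 for Synm. Gjb2, connexin 26, fell by 0.98 and lost its call without hormone library 2 or 3 or conventional library 2 (0.0519 to 0.187). Epha1, an ephrin receptor, fell by 0.97 and lost its call without hormone library 3 (0.0538) or conventional library 2 (0.145). Klhdc7a fell by 1.26 and was not called when any single library was dropped (0.0504 to 0.225).

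**Figure D4:**
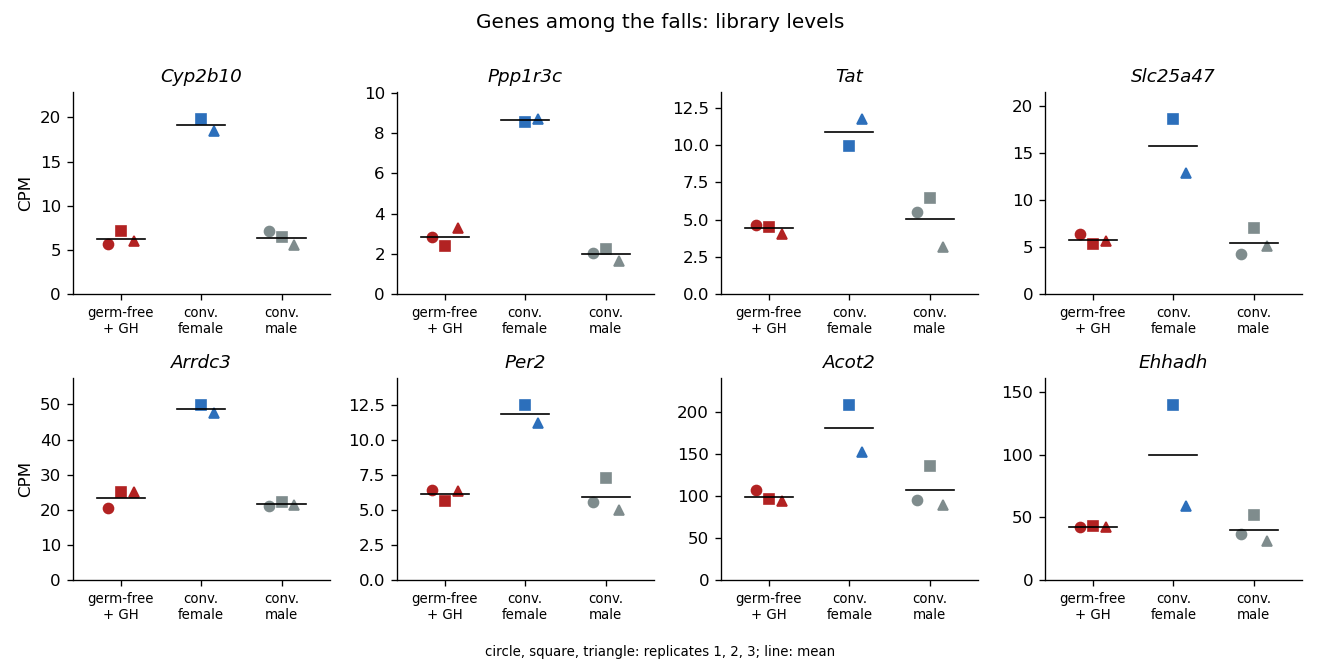
Level in CPM (vertical axes from 0) of 8 genes that fell, in the libraries with germ-free serum plus growth hormone (red), conventional female serum (blue) and conventional male serum (grey). Symbols are replicates and lines are means. Hormone libraries lie below both conventional female libraries in all 8 genes, which the rule of choice required for all but Per2 and Acot2. Ehhadh shows the wide gap between conventional female replicates at 139.9 and 59.4 CPM.

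Clock genes had 0 rises and 5 falls among 22 tested, beside 1.04% falls over all genes. Their median was -0.18, and 2 to 3 fell with any 1 library left out. Per2, a repressor of the molecular clock (chromosome 1, 91415982 to 91459324), had 6.43, 5.66 and 6.35 CPM in the hormone libraries, against 12.5 and 11.2 CPM in the conventional ones. It fell by 0.95 ± 0.14 (adjusted p 0.00219). Tef, a clock output factor of the PAR bZIP family, had 33.9, 36.1 and 34.9 CPM in the hormone libraries, against 51.5 and 55.8 CPM in the conventional ones, and fell by 0.62 ± 0.0907. Both kept their calls without each library. Per1 and Nfil3 fell by 0.55 and 0.28, and neither call held with any single library dropped. The core activators Arntl, at -0.21 (adjusted p 0.487), and Clock, at 0.03, did not pass.

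Ahsg, fetuin-A, an abundant plasma protein that inhibits calcification (chromosome 16, 22891277 to 22899449), had 2644, 2354 and 2703 CPM in the hormone libraries, against 3779 and 4065 CPM in the conventional ones. It fell by 0.61 ± 0.083 (adjusted p 0.00114), held without each library. The list of hepatokines had 0 rises and 4 falls of 16 tested, beside 1.04% falls over all genes, with a median of -0.37. In that list 1 fell without hormone library 2, hormone library 3 or conventional library 3, and 2 without conventional library 2. Of 23 tested hepatocyte transcription factors 2 rose, Irx3 and Onecut2, beside 1.31% rises over all genes, and 1 fell, Foxa2. Without conventional library 2, 0 rose, without hormone library 2 or 3, 1 rose, and without conventional library 3, 2 fell. Onecut2, a liver homeobox factor, had 46.8, 41.5 and 39.8 CPM in the hormone libraries, against 27.1 and 23.4 CPM in the conventional ones, and rose by 0.76 ± 0.182, a call lost when any single library was left out (adjusted p 0.0870 to 0.231). Foxa2, a pioneer factor of liver genes, had 39.6, 31.8 and 34.9 CPM in the hormone libraries, against 50.7 and 56.5 CPM in the conventional ones, and fell by 0.60 ± 0.0928. Irx3, an Iroquois homeobox gene, moved the other way, with 13, 19.1 and 16.3 CPM in the hormone libraries, against 4.94 and 6.76 CPM in the conventional ones. It rose by 1.46 ± 0.252, a call lost without conventional library 2 (adjusted p 0.0739). Hnf4a, the master factor of hepatocytes, did not pass (-0.24, adjusted p 0.193).

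Interferon-stimulated genes had 1 rise and 4 falls among 41 tested, beside 1.31% rises and 1.04% falls over all genes, with a median of -0.19. Irf1, a factor shared by interferon and NF-kB responses, rose by 0.36 ± 0.0762, a call lost without hormone library 1 or 3 or either conventional library (adjusted p 0.0649 to 0.116). Mx2, an antiviral GTPase, had 24.8, 28.7 and 25.3 CPM in the hormone libraries, against 36.9 and 36.1 CPM in the conventional ones, and fell by 0.48 ± 0.0864, a call lost without hormone library 3 (0.0510) or conventional library 2 (0.0641). Tap1, the peptide transporter of antigen presentation, fell by 0.51 and lost its call without hormone library 2 (0.0631) or 3 (0.0724) or conventional library 2 (0.130). The list had 0 falls without hormone library 3 or conventional library 2, 2 without hormone library 2 and 6 without conventional library 3.

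Cell cycle genes had 3 rises and 0 falls among 35 tested, beside 1.31% rises and 1.04% falls over all genes. Their median was 0.29. Mki67, the proliferation marker Ki-67, had 10.4, 7.74 and 9.35 CPM in the hormone libraries, against 3.76 and 3.38 CPM in the conventional ones, and rose by 1.36 ± 0.27. Its call was lost without hormone library 3 (adjusted p 0.0557) or conventional library 2 (0.0737) or 3 (0.0992), and the list had 0 rises without hormone library 3 or conventional library 2, 1 without hormone library 1 or conventional library 3, and 2 without hormone library 2. Cd44, a hyaluronan receptor of cells in culture, had 137, 123 and 128 CPM in the hormone libraries, against 79.4 and 56.0 CPM in the conventional ones, and rose by 0.94 ± 0.132 (adjusted p 0.00162), held without each library. Of 56 cytosolic ribosomal protein genes 0 were called by edgeR or DESeq2 and 0 had an unadjusted p under 0.05, with a median of 0.02. Of 36 female-biased liver genes 0 were called by edgeR, while 1 rose and 2 fell by DESeq2 and 7 had an unadjusted p under 0.05. Of 33 male-biased ones 2 rose: Nox4, an oxidase (1.02, lost without conventional library 3 at adjusted p 0.109), and Egfr, the epidermal growth factor receptor (0.35, lost without any hormone library or conventional library 3). Of 24 complement genes 0 were called by edgeR or DESeq2, and 3 had an unadjusted p under 0.05. Beside these list counts, DESeq2 called 691 of all 17251 genes (383 rises, 308 falls), and 2499 had an unadjusted p under 0.05 by edgeR.

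**Figure D5:**
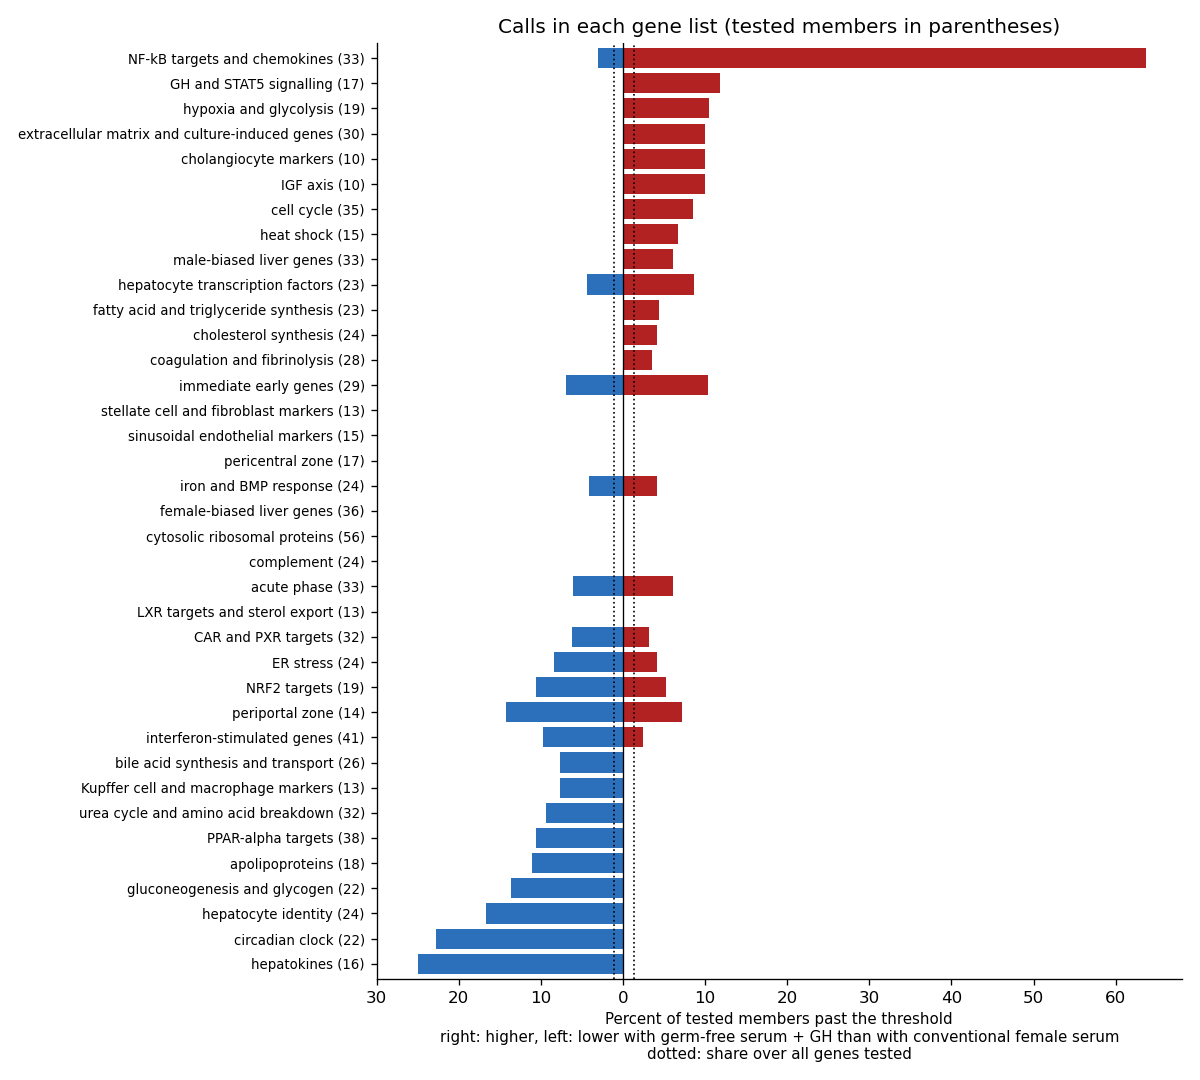
Percent of the tested members of each of 37 gene lists that rose (red, to the right) or fell (blue, to the left) with germ-free serum plus growth hormone relative to conventional female serum; the number tested stands in parentheses and dotted lines mark the shares over all genes, 1.31% and 1.04%. The list of NF-kB targets and chemokines reaches furthest to the right, with 21 of 33 members, and hepatokines furthest to the left, with 4 of 16.

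The same hormone libraries were set against the 3 libraries of female hepatocytes in conventional male serum, where serum sex differs as well. Because both comparisons share the hormone libraries, their values are given side by side and not as independent results. Of 17251 genes 419 passed (2.43%), with 253 rises (1.47%) and 166 falls (0.962%); without single libraries the count ran from 170 without hormone library 3 to 842 without male serum library 3, with 194 without hormone library 1 and 245 without male serum library 1. Il1b had 0.0267, 0.0277 and 0 CPM in male serum, and its log2 change against male serum was 8.71 ± 0.385. Il1a, Il6, Nos2, Ccl4 and Ccl3 changed by 6.79, 7.05, 6.85, 5.11 and 5.01 against male serum. In the NF-kB list 24 of 33 members rose, beside 1.47% over all genes, and 0 fell against male serum, with a median of 1.05.

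Other genes did not show like values against the 2 conventional sera. Cish had 57.8, 36.5 and 38.7 CPM in male serum, a range that overlapped the hormone libraries, and its change against male serum was 0.32 ± 0.128 (adjusted p 0.226). Socs2 stood at 15.7, 16.3 and 16.3 CPM in male serum, and its change of 0.81 ± 0.107 passed (adjusted p 0.000477). Cyp2b10 had 7.10, 6.43 and 5.59 CPM in male serum, and its change against male serum was -0.02 ± 0.117. Ppp1r3c, Tat, Slc25a47, Arrdc3, Per2 and Acot2 also had no call against male serum, with log2 changes of 0.52, -0.18, 0.08, 0.12, 0.05 and -0.11. Against male serum 0 members fell in the hepatokine, glycogen, clock, PPAR-alpha, interferon and hepatocyte identity lists, beside 0.962% falls over all genes. Their medians were 0.07, 0.11, 0.02, -0.01, 0.08 and 0.02. In these lists 1 hepatokine and 3 interferon-stimulated genes rose against male serum.

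Of the acute phase genes, 14 of 33 rose and 0 fell against male serum, beside 1.47% rises over all genes. This count was not repeated with libraries left out. The median was 0.34. Fga had 290, 423 and 329 CPM in male serum, below all hormone libraries, a log2 change of 1.44 ± 0.19 (adjusted p 0.000506). Crp, C-reactive protein, had 20.0, 15.1 and 16.7 CPM in the hormone libraries, against 5.44, 7.42 and 6.02 CPM in male serum, and changed by 1.46 ± 0.15. The largest falls against male serum by the same rule were Metazoa_SRP, Arc, 7SK (2 rows), Rpl19-ps1 and Trbc1. Arc, an immediate early gene of neurons, had 2.49, 2.65 and 1.38 CPM in the hormone libraries, against 7.66, 10.3 and 6.93 CPM in male serum, a log2 change of -1.93 ± 0.311. The Metazoa_SRP, 7SK and Rpl19-ps1 entries stand for small noncoding RNA or pseudogene copies with near-identical relatives, so their counts are uncertain.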

How the data were processed

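RNA of cultured hepatocytes was sequenced, and the authors deposited 1 table of raw exon counts per gene with 15 columns. Reads were aligned to mm10 with STAR 2.4.0i, per the submitters' processing notes. The counting program, annotation and strand setting were not given in the sources used here, so genes that overlap others are uncertain. A pair of columns with 1 header name was left out, and columns were matched to samples by name.

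From the deposited counts, genes were filtered (filterByExpr, minimum count 10), scaled by TMM and tested with the quasi-likelihood test of edgeR 4.0.16 in R 4.3.3 on 11 libraries in 4 groups (the 3 described and hepatocytes of male donors in male serum, for the spread only; common biological variation 9.22%), with Benjamini-Hochberg adjustment. The libraries with germ-free serum and vehicle entered only 1 alternative, for the spread. Intervals cover counting error only. On simulated data for the female serum comparison (16858 genes tested), 73% of 100 genes changed by 1 on the log2 scale and 89% of 100 changed by 2 were recovered, with 13 false calls among 175.

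Genes were named by a rule: the 12 largest rises and 12 largest falls (6 and 6 against male serum) with groups that do not overlap and mean counts of 50 or more, passing over predicted models, up to 4 called members of each list with at least 3 calls, and fixed names of the hormone pathway and liver markers. Other genes described were chosen after their values were seen. The members, lists and names were chosen with earlier results of these data known. Alternatives were other scalings, no filter, DESeq2 1.42.0, other groups in the fit, a stricter threshold, a replicate block and left-out libraries.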

Additional observations from a re-analysis of the deposited data

How the results depend on the processing

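The stricter threshold on the log2 change was applied to counts of called genes only, not to single named genes. Under every other alternative run, the direction of the 73 named genes called against female serum was kept. Of these genes, 32 stayed called under all of those other alternatives and 39 lost the call without at least 1 library. Counts of called genes moved. Without a filter 904 genes were called against female serum (532 rises, 372 falls) and 1119 against male serum (595 and 524). DESeq2 called 691 (383 and 308) and 798 (405 and 393), and a fit of only the compared groups 222 (136 and 86) and 235 (159 and 76). With a log2 change of at least 1, the counts were 93 (79 and 14) and 121 (79 and 42). Without both libraries richest in Xist, 214 were called against female serum (150 and 64), and 103 fell against male serum. With 1 library left out, 175 to 359 were called against female serum (106 to 204 rises, 63 to 155 falls) and 170 to 842 against male serum (125 to 384 and 45 to 458). The causes were not tested. Deviations of same-numbered libraries correlated at -0.176 (number 2) and 0.104 (number 3). With 2 conventional libraries, the deviations of one mirror those of the other, so these values cannot show whether replicate numbers pair the libraries. With the replicate block 296 genes were called against female serum (176 rises, 120 falls), and 106 fell against male serum. Some uncalled values near 0 changed sign. With library size only, Igf1 was -0.0094, Igfals -0.0044 and Stat5b -0.0024. With the replicate block Igfals was -0.0104. Without both libraries richest in Xist, Cyp7b1 was 0.0782 and Elovl3 -0.2524. With 1 library left out, log2 changes ran for Igf1 from -0.1093 to 0.1693, for Igfals from -0.0624 to 0.1315, for Onecut1 from -0.2578 to 0.5044, for Arc from -0.4451 to 1.2754, for Cyp7b1 from -0.2585 to 0.1161, for Elovl3 from -0.3472 to 0.5495, for Rpl19-ps1 from -0.5379 to 0.1393 and for Jak2 from -0.0891 to 0.1795. With 2 conventional libraries, differences of genes with few counts rest on single-digit counts.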

Other observations

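A further set of genes, picked after their values were seen, rose against female serum and had lower or level values against male serum; the 2 comparisons share the hormone libraries. Htr2b, a serotonin receptor, had 5.48, 7.48 and 9.07 CPM in the hormone libraries, against 2.92 and 2.25 CPM in conventional female serum, and stood at 10.9, 8.51 and 9.65 CPM in male serum. It rose by 1.50 ± 0.202 against female serum (adjusted p 0.00110, edgeR), and its change against male serum was -0.40 (adjusted p 0.225). Tmprss11f, a membrane serine protease, had 8.43, 9.51 and 8.22 CPM in the hormone libraries, against 3.97 and 2.87 CPM in female serum and 10.2, 11.4 and 15.5 CPM in male serum, with changes of 1.34 and -0.51. Both calls against female serum held without each library in turn. Insig1, which restrains sterol synthesis, had 85.2, 91.0 and 89.3 CPM in the hormone libraries, against 61.7 and 68.8 CPM in female serum and 107, 118 and 134 CPM in male serum. It rose by 0.44 ± 0.0934 against female serum and fell by 0.44 against male serum (adjusted p 0.0104); the first call was lost without hormone library 2 or 3 or conventional library 2 (adjusted p 0.0749 to 0.191).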
